A study of Mus musculus with 28 samples.

Results

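The genes described here are 10 antioxidant and detoxifying genes linked to the transcription factor Nrf2, followed in whole mouse brain through loss and return of myelin: Hmox1, Nqo1, Gclm, Gclc, Txnrd1, Srxn1, Gpx1, Gpx4, Sod2 and Prdx1. They were taken by symbol, each matched to 1 Ensembl identifier, out of 55414 genes in the tables, and 9 of the 10 held enough counts to be tested among 12423 genes. The 28 libraries form 4 groups of 7. Naive, demyelination and remyelination samples all came from TNFR1ff mice, which carry a floxed TNFR1 gene on a C57BL/6 background and no deletion. Their cuprizone stages are coded CPZ0, CPZ5 and CPZ6+1 without a unit. The fourth group, called the knockout here, is mgTNFR1KO (Cx3cr1-CreER.Tnfr1ff) at CPZ6+1, in which tamoxifen was given as a therapy to delete TNFR1 from microglia. The Cre is driven from Cx3cr1, a gene that other macrophages and monocytes also use. The sources used here do not give age, sex or whether TNFR1ff mice received tamoxifen.

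Nrf2, encoded by Nfe2l2, is held in the cytoplasm and degraded through Keap1. Oxidants and electrophiles release it, and it then binds antioxidant response elements with a small Maf protein and raises genes that make glutathione, recycle thioredoxin, reduce quinones and break down haem. Cuprizone is a copper chelator given in food. It kills oligodendrocytes, the iron-rich and lipid-rich cells that form myelin, and microglia then clear the debris. Oxidative stress is a known feature of this model, which is why these genes are of interest at each stage.

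The motif by which Nrf2 acts could be shown for part of the list from RefSeq promoter windows on GRCm38.p6, which hold 250 bases before and 50 bases after a gene's start. Windows were found for 8 of the 10 genes, 13 windows in all, and not for Hmox1 and Gclc. The core of the antioxidant response element was searched as TGACNNNGC on both strands. It was present in 1 window each of Gclm, Prdx1, Txnrd1 and Srxn1, against 12.4% of all 32851 windows. The matches are printed because this motif is the one Nrf2 is known to bind, each read 5′ to 3′ on the minus strand with the core in capitals, at chr3:122245413-122245441 for Gclm, chr4:116685456-116685484 for Prdx1, chr10:82859104-82859132 for Txnrd1 and chr2:152105552-152105560 for Srxn1.
Gclm: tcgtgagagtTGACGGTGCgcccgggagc
Prdx1: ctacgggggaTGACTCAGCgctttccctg
Txnrd1: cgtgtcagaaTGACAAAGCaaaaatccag
Srxn1: TGACCTAGC
The Prdx1 core also contains TGACTCA, the motif of AP-1 factors, which overlaps the element and occurs in 5.20% of all windows. The match of Srxn1 lies in the 50 bases after the start, so only its core is printed, and that of Txnrd1 is in the second of 3 windows. The windows of Nqo1, Gpx1, Gpx4 and Sod2 did not contain these letters. A match is a description of the letters and no evidence of binding, and the measurements below do not bear on it.

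RNA was measured by QuantSeq, a protocol that reads a short stretch near the polyadenylated end of each transcript, and the tables give RSEM expected counts. Library totals ran from 1522913 to 3137254 counts, and values are given as CPM, counts scaled to library size by TMM. A single gene without a symbol took from 1.33% of the counts in knockout library 1 to 25.5% in naive library 1. The labels were checked on tissue markers. All 12 oligodendrocyte markers fell from naive to demyelination, with sums of 6385 to 7413 CPM in naive and 2631 to 3758 CPM in demyelination libraries, and 10 of them were higher again in remyelination. The neuron markers summed to between 5335 and 6887 CPM in every library. Tnfrsf1a, the targeted gene, ranged from 15.6 to 28.8 CPM in remyelination and from 16.5 to 30.4 CPM in knockout libraries. A 3′ tag may lie outside the deleted part and other cells keep the gene, so these Tnfrsf1a values check nothing. Cx3cr1, the gene from which the Cre is driven, averaged 48.9 CPM in remyelination and 26.1 CPM in knockout libraries. Its log2 fold change was −0.89 (edgeR adjusted p = 0.0365), and the reason was not tested. No label says that the 7 samples of a group are separate animals, so p-values measure only the spread between these samples.

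No member changed past the threshold at any stage. With edgeR's quasi-likelihood test, adjusted by Benjamini-Hochberg over all genes tested, 0 of 9 members lay below an adjusted p of 0.05 from naive to demyelination, where 2% of all tested genes were called. There were 0 of 9 from naive to remyelination against 0.628% of genes, 0 of 9 from demyelination to remyelination against 0.386%, and 0 of 9 between knockout and remyelination against 0.0483%. DESeq2 also called 0 of 9 each time. At an unadjusted p below 0.05 there was 1 member from naive to demyelination (Gpx4) against 13.3% of genes, 0 from naive to remyelination against 10.4%, 0 from demyelination to remyelination against 6.65%, and 1 between knockout and remyelination (Prdx1) against 7.49%. The shares among all genes are small, so a count of 0 of 9 does not set the members apart. In every comparison the CPM of the groups overlapped for each of the 9 members, while 1.38%, 0.628%, 0.322% and 0.129% of genes had groups that did not overlap, in the same order.

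**Figure D1:**
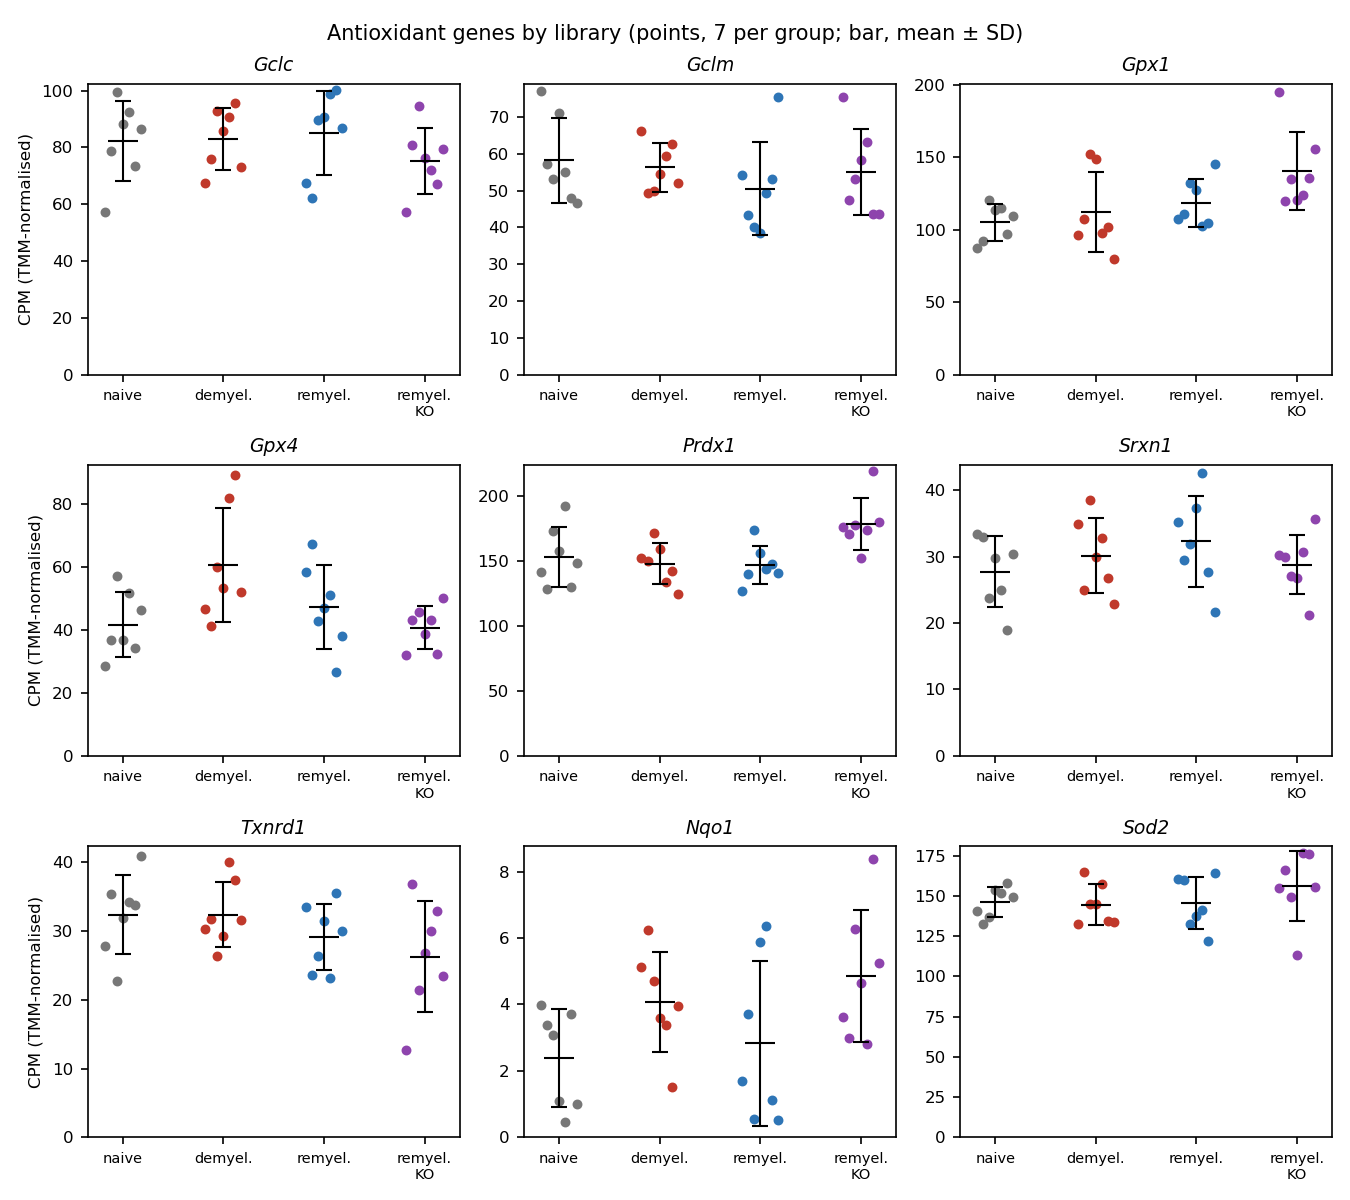
CPM after TMM scaling on the vertical axes for each of the 9 tested genes, with 1 point per library, 7 per group, and bars at the mean ± SD. The groups overlap in every panel, and Gpx4 is highest on average in demyelination at 60.7 CPM. Hmox1, at 0 in all 28 libraries, is not drawn.

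The members' median log2 fold change was 0.01 from naive to demyelination, beside −0.01 over all tested genes. From naive to remyelination it was 0.04, from demyelination to remyelination −0.01 and from remyelination to knockout 0.10, beside 0.00 over all genes in each. From naive to demyelination 5 members had a positive and 4 a negative fold change. The first 3 comparisons share groups with one another and the last shares the remyelination group, so their values are not independent. The intervals show which sizes of change the values leave in. From naive to demyelination the 95% interval of the log2 fold change, unadjusted for the number of genes, lay between −0.34 and 0.45 for each of the 7 members other than Gpx4 and Nqo1. A change to 1.5 times the naive level lies outside those 7 intervals. This does not say what size of change would have passed the adjusted threshold.

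**Figure D2:**
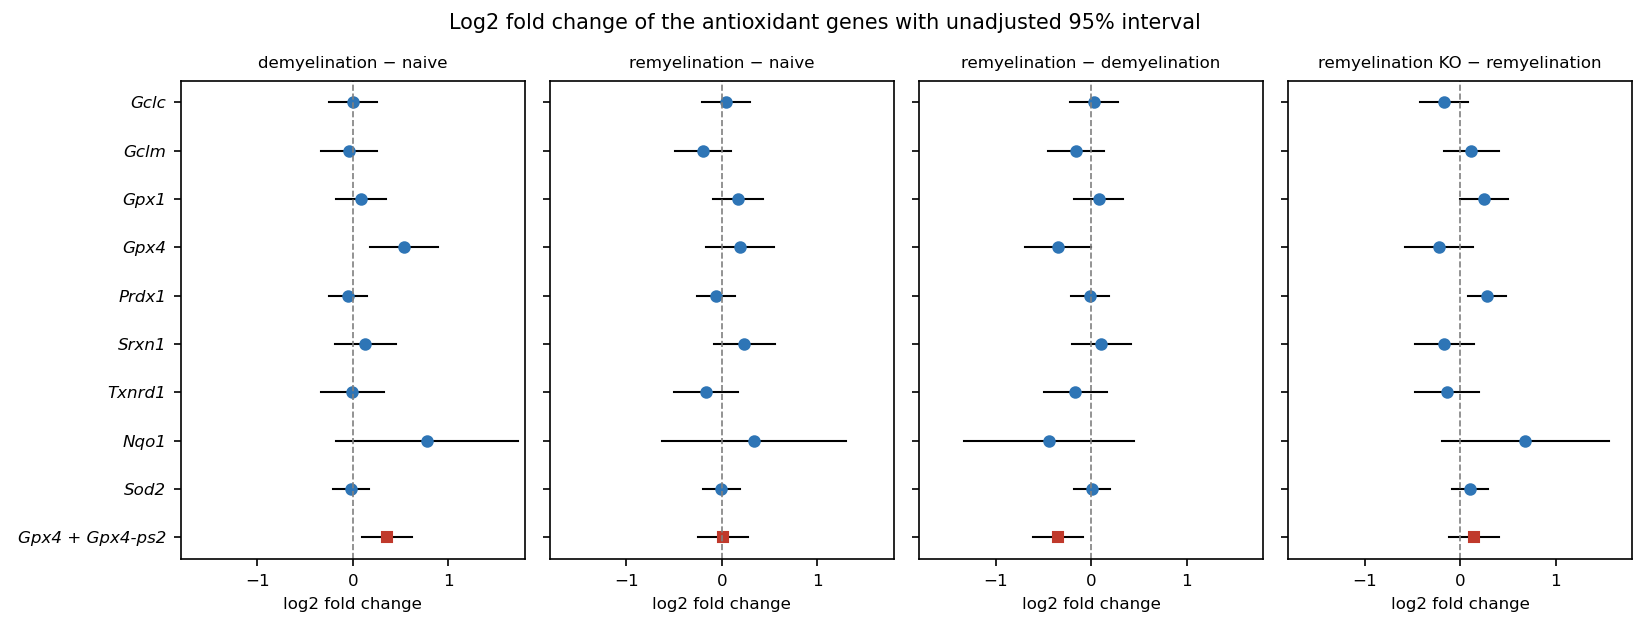
Log2 fold change of each of the 9 tested genes in the 4 comparisons, as points with unadjusted 95% intervals from the edgeR fit of 7 libraries per group. Squares give Gpx4 summed with its near-identical copy Gpx4-ps2, with the same kind of interval. Among the 9 genes the interval leaves out 0 for Gpx4 from naive to demyelination (0.18 to 0.89). It also does for Prdx1 between knockout and remyelination (0.08 to 0.48). That of the sum does so from naive to demyelination (0.09 to 0.62) and from demyelination to remyelination (−0.61 to −0.09). None of these passed the adjusted threshold.

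Glutathione synthesis is limited by glutamate-cysteine ligase, whose catalytic subunit is Gclc and whose modifier subunit is Gclm. Gclc (ENSMUSG00000032350.10) ran over 57.3, 86.4 and 99.5 CPM (lowest, median and highest library) in naive, 67.3, 85.6 and 95.5 in demyelination, 62.2, 89.7 and 100 in remyelination and 57.4, 76.3 and 94.4 CPM in knockout libraries. The 4 ranges overlap over most of their length. Its means were 82.3 ± 13.96 CPM in naive and 83.0 ± 10.9 CPM in demyelination (SD, n = 7 each). That is a log2 fold change of 0.01, with an unadjusted 95% interval from −0.25 to 0.26. The knockout mean of 75.3 ± 11.7 CPM was the lowest of the 4 groups, and 6 of 7 knockout libraries were below the remyelination median. The difference was −0.17 on the log2 scale (SE 0.124, adjusted p = 0.775).

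Gclm (ENSMUSG00000028124.16) ran over 46.5, 55.0 and 77.1 CPM in naive, 49.3, 54.5 and 66.3 in demyelination, 38.4, 49.3 and 75.4 in remyelination and 43.5, 53.2 and 75.5 CPM in knockout libraries. The lowest mean was in remyelination, 50.6 ± 12.6 CPM (SD, n = 7), where 6 of 7 libraries were below the naive median and the seventh, at 75.4 CPM, was well above the others. The log2 fold change from naive was −0.20 (95% interval −0.49 to 0.09, adjusted p = 0.661). Gclm shares sequence with the antisense gene Gm17494, which held 14096 counts against 3147 for Gclm. No source used here states the strand setting of the counting, so reads of these overlapping genes cannot be told apart with certainty. The end of a Gclm transcript is also 97.9% identical over 287 bases to Ppia on the same strand, which held 45181 counts, and 100% identical over 244 bases to Gm10123, which held 118 counts, so the value of Gclm is uncertain. Gm17494 did not pass the test either, with an adjusted p from 0.661 to 0.945 over the 4 comparisons.

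The glutathione peroxidases use glutathione to reduce peroxides, Gpx1 mainly hydrogen peroxide in the cytosol and Gpx4 lipid peroxides within membranes, the step whose loss leads to ferroptosis. Gpx4 (ENSMUSG00000075706.12) had the lowest p of any member between naive and demyelination. It ran over 28.6, 36.9 and 57.2 CPM in naive and 41.4, 53.3 and 89.4 CPM in demyelination libraries. All 7 demyelination libraries were above the naive median and 3 were above the highest naive library. The means were 41.7 ± 10.3 and 60.7 ± 18.2 CPM (SD, n = 7 each), a log2 fold change of 0.53 (SE 0.176, 95% interval 0.18 to 0.89). Its unadjusted p was 0.00417 and its adjusted p 0.118, so the difference did not pass. Without the filter on low counts the adjusted p was 0.0497, which passes, and over all alternatives it ranged from 0.0497 to 0.320.

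Remyelination libraries ran over 26.6, 46.9 and 67.3 CPM for Gpx4 and knockout libraries over 32.0, 43.1 and 50.3 CPM. The 2 groups overlapped each other and both overlapped the naive group. The mean in remyelination was 47.4 ± 13.3 CPM, a log2 fold change of −0.35 from demyelination (95% interval −0.69 to 0.00, adjusted p = 0.754). From the highest mean to the lowest the order was demyelination, remyelination, naive and knockout. Demyelination and remyelination, and remyelination and naive, did not differ past the threshold, and naive and knockout were not compared.

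The reads behind Gpx4 were divided with a near-identical copy. Gpx4-ps2 (ENSMUSG00000110841.2) is 99.8% identical to Gpx4 over the last 500 bases and held 3760 counts against 2826 for Gpx4. In 28 of 28 libraries the expected count of Gpx4 was not whole, while the sum of the pair was whole within 0.015 in 28 of 28. Gpx4 took between 23.0% and 58.7% of that sum, with medians of 38.9% in naive, 41.0% in demyelination, 41.5% in remyelination and 39.1% in knockout libraries. The tables cannot say which of the pair gave a read. Summed, the pair ran over 87.9, 101 and 127 CPM in naive, 91.3, 146 and 169 in demyelination, 87.5, 109 and 115 in remyelination and 72.5, 116 and 142 CPM in knockout libraries.

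The summed counts were still higher on average in demyelination than in naive libraries, by 0.36 on the log2 scale (SE 0.130, 95% interval 0.09 to 0.62, adjusted p = 0.173). From demyelination to remyelination the sum differed by −0.35 (95% interval −0.61 to −0.09, adjusted p = 0.478). Against naive, remyelination differed by 0.01 (95% interval −0.26 to 0.27). The comparison of knockout with remyelination turned round: Gpx4 alone gave −0.22 (95% interval −0.58 to 0.14) and the sum 0.15 (95% interval −0.12 to 0.41). Gpx4-ps2 alone gave 0.40 there with an adjusted p of 0.628. No direction can be given for Gpx4 in the knockout.

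**Figure D3:**
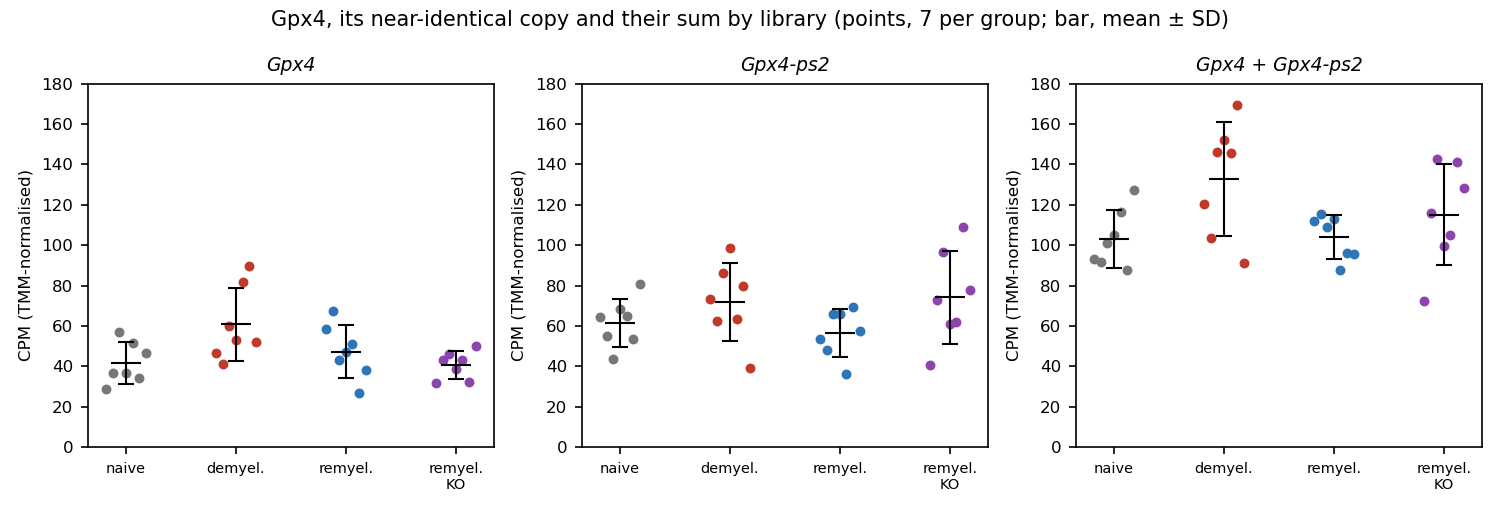
CPM after TMM scaling of Gpx4, Gpx4-ps2 and their sum, with 1 point per library, 7 per group, and bars at the mean ± SD. The summed values average 133 CPM in demyelination and 103, 104 and 115 CPM in naive, remyelination and knockout, with groups that overlap.

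Gpx1 (ENSMUSG00000063856.9) ran over 87.5, 110 and 121 CPM in naive, 79.4, 102 and 152 in demyelination, 102, 111 and 146 in remyelination and 120, 135 and 195 CPM in knockout libraries. Of the demyelination libraries 2 were above the highest and 1 was below the lowest naive library. All 7 knockout libraries were above the remyelination median, and 2 were above the highest remyelination library. The knockout and remyelination means were 141 ± 27.0 and 119 ± 16.6 CPM (SD, n = 7 each), a log2 fold change of 0.25 (95% interval −0.01 to 0.50, adjusted p = 0.671).

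Thioredoxin reductase, peroxiredoxin and sulfiredoxin form the other thiol branch. Txnrd1 keeps thioredoxin reduced in the cytosol, Prdx1 uses thioredoxin to reduce hydrogen peroxide, and Srxn1 repairs peroxiredoxins that have been over-oxidised. Prdx1 (ENSMUSG00000028691.13) ran over 128, 149 and 192 CPM in naive, 125, 150 and 172 in demyelination, 127, 144 and 174 in remyelination and 152, 176 and 219 CPM in knockout libraries. The 3 TNFR1ff groups lie together, and the knockout group reaches higher. All 7 knockout libraries were above the remyelination median and 5 were above the highest remyelination library, yet the groups overlapped. The knockout and remyelination means were 178 ± 20.2 and 147 ± 14.7 CPM (SD, n = 7 each). The log2 fold change was 0.28 (SE 0.0981, 95% interval 0.08 to 0.48) with an unadjusted p of 0.00636 and an adjusted p of 0.535, so Prdx1 did not pass.

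The mean values of Prdx1 and Gpx1 were higher in knockout than in remyelination libraries, but neither difference passed. Markers of red blood cells and of choroid plexus and ependyma are given beside them. The 5 red blood cell markers summed to 371 to 726 CPM in remyelination and 515 to 1157 CPM in knockout libraries. Of the 4 that were tested, 0 passed in edgeR and 0 in DESeq2, with 3 at an unadjusted p below 0.05. The 7 choroid plexus and ependyma markers summed to 728 to 1354 CPM in remyelination and 1086 to 1605 CPM in knockout libraries. Most of that sum was Ttr, which averaged 644 CPM in remyelination and 1006 CPM in knockout libraries. Of the 6 markers of this list that were tested, 0 passed in edgeR and 1 in DESeq2, with 2 at an unadjusted p below 0.05. Their log2 fold changes ran from −0.06 to 0.64, with a median of 0.13. The part of either tissue in the Prdx1 and Gpx1 values was not tested.

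Across the cuprizone stages the values of Prdx1 lay close together. The log2 fold change from naive was −0.05 in demyelination (95% interval −0.25 to 0.15) and −0.06 in remyelination (95% interval −0.26 to 0.14). Txnrd1 (ENSMUSG00000020250.12) ran over 22.7, 33.8 and 40.9 CPM in naive, 26.3, 31.6 and 40.0 in demyelination, 23.2, 29.95 and 35.5 in remyelination and 12.7, 26.8 and 36.9 CPM in knockout libraries. The naive and demyelination means were both 32.4 CPM, with SDs of 5.81 and 4.74 (n = 7 each). From naive to remyelination the log2 fold change was −0.17 (95% interval −0.50 to 0.16, adjusted p = 0.764), with 6 of 7 remyelination libraries below the naive median. The lowest value of all, 12.7 CPM, belongs to knockout library 1, the library in which the most abundant gene took its smallest share.

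Srxn1 (ENSMUSG00000032802.9) ran over 19.0, 29.7 and 33.4 CPM in naive, 22.9, 29.9 and 38.6 in demyelination, 21.7, 31.9 and 42.6 in remyelination and 21.2, 29.9 and 35.6 CPM in knockout libraries. The 4 medians lie between 29.7 and 31.9 CPM. The highest mean was that of remyelination, 32.3 ± 6.86 CPM against 27.7 ± 5.35 CPM in naive (SD, n = 7 each). The log2 fold change was 0.24 (95% interval −0.08 to 0.55, adjusted p = 0.617).

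Nqo1 and Hmox1 are the members most often used as readouts of Nrf2, and these data hold little or nothing of them. Nqo1 (ENSMUSG00000003849.9), a reductase that turns quinones into less reactive hydroquinones, was read between 1 and 20 times per library. It ran over 0.470, 3.09 and 3.98 CPM in naive, 1.52, 3.95 and 6.23 in demyelination, 0.516, 1.68 and 6.36 in remyelination and 2.80, 4.64 and 8.37 CPM in knockout libraries. A level of 3 counts, taken as the floor, corresponds to 0.956 to 1.97 CPM, so the lowest libraries lie at or under it. The log2 fold change from naive to demyelination was 0.78, with an interval from −0.17 to 1.73 (adjusted p = 0.508), and 6 of 7 demyelination libraries were above the naive median. All 7 knockout libraries were above the remyelination median, with a log2 fold change of 0.68 and an interval from −0.19 to 1.56 (adjusted p = 0.744). As a ratio the interval runs from 0.888 to 3.31 times the naive level, which leaves in both the naive level and 3 times that level. In naive libraries the coefficient of variation of Nqo1 was 61.5%, against 47.5% from counting alone.

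Hmox1 (ENSMUSG00000005413.9), the inducible haem oxygenase, which splits haem into iron, carbon monoxide and biliverdin, was listed at 0 in each of the 28 libraries. Over 58444495 counts in all, 3 counts would correspond to 0.0513 CPM, and within a group to between 0.187 and 0.221 CPM. These floors cover counting error only. Hmox2, the constitutive haem oxygenase, averaged 17.5 to 18.8 CPM over the 4 groups and did not pass in any comparison. Genes near Hmox1 were counted, with 610 counts for Tom1 and 247 for Mcm5. Whether the zeros of Hmox1 reflect its level in brain or the way it was counted cannot be told apart here, and no fold change is given.

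Sod2, the manganese superoxide dismutase of mitochondria, had nearly the same mean in the 3 TNFR1ff groups. Sod2 (ENSMUSG00000006818.6) ran over 132, 150 and 158 CPM in naive, 133, 145 and 165 in demyelination, 122, 142 and 164 in remyelination and 113, 156 and 177 CPM in knockout libraries. The means were 146 ± 9.61, 145 ± 12.6, 146 ± 16.3 and 156 ± 21.7 CPM in that order (SD, n = 7 each). From naive to demyelination the log2 fold change was −0.02 with a 95% interval from −0.21 to 0.17, or 0.865 to 1.13 times the naive level. Knockout against remyelination gave 0.10 (95% interval −0.09 to 0.29, adjusted p = 0.841). The end of a Sod2 transcript is 98.6% identical over 500 bases to one of Rps6ka2, which held 1513 counts against 8630 for Sod2. Reads of either gene could have been placed on the other, and the share was not tested.

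Outside the list of 10, single genes of the wider pathway passed the test. Of 73 genes in 7 lists of regulators, glutathione, thioredoxin, peroxidase, NADPH, quinone and haem, and ferroptosis genes, 63 were tested. From naive to demyelination 5 rose and 0 fell, with 12 at an unadjusted p below 0.05, while 1.3% of all tested genes rose and 0.7% fell. From naive to remyelination 2 were higher and 0 lower, beside 0.451% and 0.177% of all genes, with 13 at an unadjusted p below 0.05. From demyelination to remyelination 0 were higher and 1 lower, beside 0.201% and 0.185%, with 8 at an unadjusted p below 0.05. Between knockout and remyelination 0 of 63 passed in edgeR, beside 0.0402% higher and 0.00805% lower, with 7 at an unadjusted p below 0.05. The shares of all tested genes at an unadjusted p below 0.05 in edgeR were 13.3%, 10.4%, 6.65% and 7.49%, in the same order. DESeq2 called 6, 3, 2 and 1 genes of the lists in that order, beside 342, 132, 73 and 13 of all genes. Its calls in the lists beyond those of edgeR included Cul3, which was lower in demyelination than in naive, and Nfe2l2 in remyelination against naive. The others were Nfe2l1, which was lower in remyelination than in demyelination, and Txnip in the knockout. Txnip, an inhibitor of thioredoxin, had a log2 fold change of 0.68 there (DESeq2 adjusted p = 0.0364), with an adjusted p of 0.130 in edgeR. Nfe2l1, a relative of Nrf2, differed by −0.35 (adjusted p = 0.0184 in DESeq2 and 0.0817 in edgeR).

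Among the regulators, 1 of 9 tested rose in demyelination, and this was Nfe2l2 (ENSMUSG00000015839.7), the gene of Nrf2 itself. It ran over 13.6, 17.4 and 22.7 CPM in naive and 23.7, 32.4 and 39.6 CPM in demyelination libraries, which did not overlap. This is a log2 fold change of 0.81, with an SE of 0.176 and an adjusted p of 0.00403. In remyelination it ran over 19.3, 26.0 and 39.2 CPM, all 7 libraries above the naive median, with a log2 fold change from naive of 0.64 and an adjusted p of 0.0832 in edgeR and 0.0479 in DESeq2. Knockout libraries ran over 19.0, 24.4 and 34.9 CPM and differed from remyelination by −0.10 (95% interval −0.44 to 0.25). Keap1, which holds Nrf2 back, differed by 0.02 from naive to demyelination (adjusted p = 0.966). Cul3, the scaffold of the ubiquitin ligase that Keap1 brings to Nrf2, averaged 93.0 CPM in naive and 69.1 CPM in demyelination. Its log2 fold change was −0.43, with an adjusted p of 0.0744 in edgeR and 0.0463 in DESeq2.

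The other genes that rose in demyelination come from several branches. Slc7a11, the cystine importer that feeds glutathione synthesis, was 1 of 17 tested genes of its list to rise. It went from 33.0 ± 7.33 CPM in naive to 50.1 ± 8.41 CPM in demyelination (SD, n = 7 each), a log2 fold change of 0.61 (adjusted p = 0.034). Its remyelination libraries, at 24.8 to 32.3 CPM, all lay below the demyelination libraries, at 39.1 to 62.7 CPM, and it fell by 0.80 on the log2 scale (adjusted p = 0.00781). The rise is less secure than the fall. Leaving out demyelination library 3, 4, 5 or 6 or naive library 2, 3, 5, 6 or 7 took its adjusted p above 0.05, to at most 0.100. The end of a Slc7a11 transcript is 96.1% identical over 154 bases to Tuba1a on the opposite strand. Tuba1a held 94606 counts against 2095 for Slc7a11, and a share of reads between them was not tested.

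Prdx6, a peroxiredoxin that reduces phospholipid peroxides with glutathione, was 1 of 11 tested genes of the thioredoxin and peroxiredoxin list to rise. Naive libraries held 114 to 134 CPM and knockout libraries 157 to 226 CPM, and these 2 groups were not tested against each other. Demyelination libraries held 153 to 190 and remyelination libraries 143 to 196 CPM, so both of these groups lay wholly above naive. The log2 fold changes were 0.48 (adjusted p = 0.00104) and 0.45 (adjusted p = 0.00455). Prdx1, of the same family, had intervals that end at 0.15 and 0.14 in those comparisons. The difference between the 2 genes was not tested.

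Of 12 tested genes of quinone, carbonyl and haem metabolism, Ephx1 and Ftl1 rose in demyelination. Ephx1, an epoxide hydrolase, went from 9.55 ± 3.49 to 18.8 ± 5.01 CPM (SD, n = 7 each; log2 fold change 0.99, adjusted p = 0.00924). Ftl1, the ferritin light chain that stores iron, held 73.7 to 93.0 CPM in naive and 103 to 153 CPM in demyelination libraries, without overlap (log2 fold change 0.54, adjusted p = 0.00301). It was still higher in remyelination than in naive (log2 fold change 0.50, adjusted p = 0.0173), a call that was lost without naive library 5 (adjusted p = 0.0604) or remyelination library 2 (adjusted p = 0.0890). Red blood cell markers stood beside these calls in remyelination, with sums of 252 to 505 CPM in naive and 371 to 726 CPM in remyelination libraries. Of the 4 tested 1 passed, all 4 were at an unadjusted p below 0.05, and their median log2 fold change was 0.64. In demyelination libraries, where Ftl1 and Prdx6 also rose, the sums were 315 to 408 CPM. From naive to demyelination 0 of the 4 passed and 0 were at an unadjusted p below 0.05. Their median log2 fold change there was −0.04. Their part in the Ftl1 and Prdx6 values of remyelination was not tested. Ftl1-ps1, on the same strand, is 99.4% identical to the end of Ftl1 over 500 bases and held 390 counts against 6550 for Ftl1. Fth1, the ferritin heavy chain, differed by 0.02 from naive to demyelination (adjusted p = 0.954). The lists of other peroxidases, NADPH supply and ferroptosis genes had 0 calls in edgeR and 0 in DESeq2 among 4, 6 and 4 tested genes, with 1, 0 and 1 at an unadjusted p below 0.05 in that comparison.

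**Figure D4:**
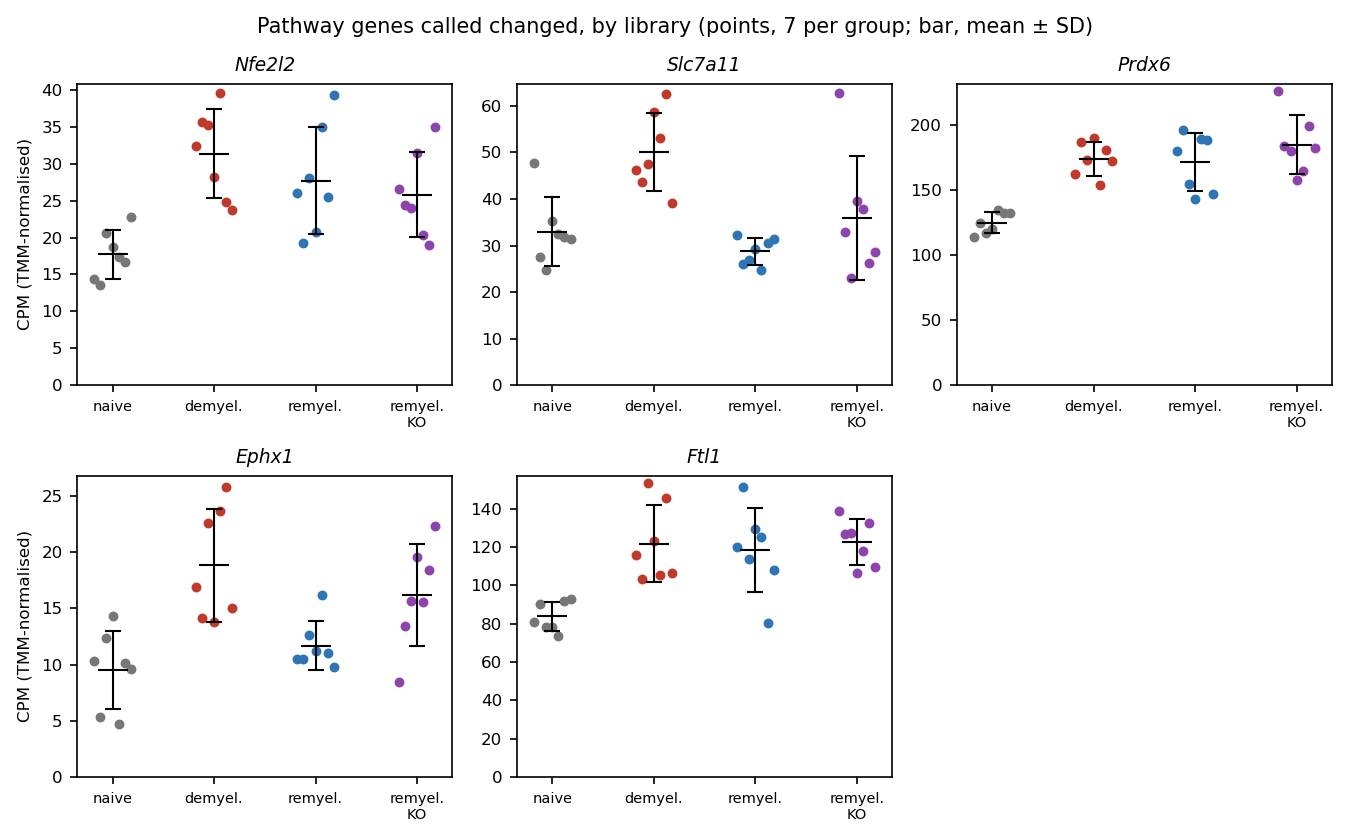
CPM after TMM scaling of the 5 pathway genes outside the list of 10 that passed in at least 1 comparison in edgeR, with 1 point per library, 7 per group, and bars at the mean ± SD. Nfe2l2, Prdx6 and Ftl1 have demyelination libraries wholly above the naive ones, and Slc7a11 in remyelination lies wholly below demyelination.

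Most microglia markers also rose from naive to demyelination. Of 12 microglia markers, 9 rose in demyelination, and their sum was 192 to 268 CPM in naive libraries and 414 to 587 CPM in demyelination libraries. It was 352 to 430 CPM in remyelination libraries and 320 to 429 CPM in knockout libraries. The sum includes Cx3cr1, the gene that drives the Cre. Between knockout and remyelination Cx3cr1 was the 1 marker of the 12 to pass, and 0 were higher. The median log2 fold change of the 12 was −0.07 there. All 8 markers of activated microglia rose in demyelination, with sums of 113 to 159 CPM in naive and 406 to 652 CPM in demyelination. Of 10 astrocyte markers 3 rose. The 8 border macrophage and monocyte markers summed to between 4.79 and 20.0 CPM in every library. The part of these cells in the Nfe2l2, Slc7a11, Prdx6, Ephx1 and Ftl1 values, and in the levels of the 10 members, was not tested. In bulk brain RNA, more or fewer cells of a type and more or less RNA per cell cannot be told apart.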

How the data were processed

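Whole-brain poly(A) RNA of 28 samples was sequenced with a 3′ tag kit, per the labels' protocols. FastQC, cutadapt, STAR, RSEM, edgeR and the build GRCm39 appear in the submitters' processing notes. Their versions and settings, strand included, were not given in the sources used here. RSEM expected counts per gene were used as the authors deposited them, not normalised, and were rounded to whole numbers (96.59 to 97.69% already were, within 0.005). Symbols came from GENCODE M21 on GRCm38 by identifier, for 52081 genes, and genes without one held 10.76% of counts. Counts were scaled by TMM, filtered by filterByExpr and tested in 1 edgeR 4.0.16 quasi-likelihood fit of 4 group means (R 4.3.3), with Benjamini-Hochberg adjustment over 12423 genes and a threshold of 0.05. Intervals of fold changes are unadjusted. DESeq2 1.42.0 was an alternative. The fit was tested on simulated data. No libraries were near-duplicates (smallest chi-square per degree of freedom 2.53). The members and lists were chosen with earlier results of these data known. All 10 members are named, and of other pathway genes every one called by edgeR in any comparison. Keap1, Cul3, Nfe2l1, Fth1, Hmox2, Txnip, Ppia, Gm10123, Gpx4-ps2, Gm17494, Rps6ka2, Tom1 and Mcm5 were named after their values were seen. So were Tuba1a and Ftl1-ps1, and the Cx3cr1 and Ttr values were also printed after they were seen. The rule that names genes of similar pattern applied only to called members and named none. Near-identical copies were sought with blastn over the last 500 bases of transcripts.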

Additional observations from a re-analysis of the deposited data

Results flagged for a closer look

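In 3 of 56 groups of 7 libraries, 1 library stood apart from the other 6, with a gap to the nearest above 0.568 of the group's range. Chance flags about 1 in 20 such groups. Gclm was 75.4 CPM in remyelination library 7, and the next library held 54.1 CPM. Prdx1 was 219 CPM in knockout library 6, and the next held 180 CPM. Slc7a11 was 62.8 CPM in knockout library 1, and the next held 39.7 CPM.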

How the results depend on the processing

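Of 788 values of members under the alternatives, 1 passed the threshold: Gpx4 from naive to demyelination without the filter on low counts, so that 1 member was called in place of 0. Members near 0 changed sign. From naive to demyelination, library totals in place of TMM gave 0.0127 for Gclm, 0.033 for Txnrd1 and 0.028 for Sod2. Leaving out naive library 1 and knockout library 1 gave 0.031 for Gclm and −0.059 for Gclc, and Txnrd1 was 0.000248 without the filter and 0.0040 with the replicate block. From naive to remyelination, Gclc was −0.0249 without those 2 libraries and Sod2 0.010 with library totals, and from demyelination to remyelination Sod2 was −0.0180 with library totals. In the knockout, Gpx4 summed with Gpx4-ps2, an alternative chosen after seeing the data, gave 0.15. Leaving out 1 library at a time, values from naive to demyelination ran from −0.085 to 0.034 for Gclm, −0.058 to 0.058 for Gclc, −0.076 to 0.063 for Txnrd1, −0.0015 to 0.16 for Gpx1, −0.046 to 0.00410 for Sod2 and −0.091 to 0.010 for Prdx1. From naive to remyelination they ran from −0.030 to 0.49 for Nqo1, −0.026 to 0.10 for Gclc and −0.039 to 0.035 for Sod2, and from demyelination to remyelination from −0.0088 to 0.10 for Gclc, −0.021 to 0.049 for Sod2 and −0.056 to 0.030 for Prdx1. Of all genes, 78 were called from naive to remyelination, but 132 by DESeq2, 122 without the filter, 147 with the replicate block and 57 to 154 with 1 library left out, the most without remyelination library 1. From demyelination to remyelination 48 were called, and 73 by DESeq2. In the knockout 6 were called, 13 by DESeq2 and 28 without the filter. The cause of these differences was not tested. Whether replicate numbers pair the samples was not settled, because no number of matches expected by chance was worked out. Of 28 libraries, 9 correlated best with their own number, and same-numbered libraries had correlations from −0.13 to 0.30. The block called 0 members in every comparison. Counts of 1 to 20 per library limit Nqo1, which fell below the filter in 2 fits per comparison.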
